A study of Mus musculus with 13 samples.

Results

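The genes described here are 36 genes of sterol and fatty acid synthesis and their control, 28 sterol and 8 fatty acid genes, taken by symbol from a table of 55774 gene entries. All 36 were found, and all 36 passed the filter on low counts, as did 15781 genes in all. The sterol genes were taken in 4 groups by role: 7 enzymes of the mevalonate pathway, 11 enzymes from squalene to cholesterol, 5 genes of the control by SREBP, and 5 genes of sterol transport, efflux and the LXR receptors. The lists do not hold every enzyme of these pathways.

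RNA was measured in bulk in T cells of female BDC2.5 mice of the NOD/ShiLtJ strain, which carry the TcraBDC2.5 and TcrbBDC2.5 transgenes (allele 1Doi) of a T cell receptor for a beta-cell antigen. Naive splenic CD4+ T cells were kept for 96 hours with macrophages from the islets of NOD donors and the live CD45+Thy1.2+CD4+ fraction was then sorted. In the STZ-macrophage co-culture (5 libraries) the donors had received 1 low dose of streptozotocin, a beta-cell toxin, at 4 weeks of age. In the control-macrophage co-culture (4 libraries) they had received buffer at that age. Islets of both kinds of donor were taken 10 days later, at 5.5 weeks. The third group, the cells alone (4 libraries), had no macrophages, and the labels do not say whether these cells were cultured, so that culture and macrophages cannot be told apart in a comparison with them. The labels call the replicates biological without naming animals or pools. They also give a batch of day 1 or day 2, without saying which step it marks. Day 1 held 2 STZ-macrophage libraries (replicates 1 and 5), 3 control-macrophage libraries (replicates 1, 2 and 4) and all 4 cells-alone libraries, and day 2 held the other 3 STZ-macrophage libraries and control-macrophage replicate 3.

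The mevalonate pathway turns acetyl-CoA into isoprenoid units and then into squalene, from which sterols and finally cholesterol are made. SREBP transcription factors, held in the endoplasmic reticulum with the escort protein Scap and the retention proteins Insig1 and Insig2, switch on these enzymes when cell sterols fall, and also switch on fatty acid synthesis. LXR receptors sense oxysterols and turn on efflux transporters, Srebf1 and fatty acid genes. Activated T cells are known to raise lipid synthesis through SREBP before they divide, while resting naive T cells make little new sterol.

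The promoters of 5 genes were singled out because they carry the letters of an SREBP or an LXR element and include enzyme, regulator and efflux genes described here. Each is the 300-base window from RefSeq (GRCm38.p6), 250 bases before to 50 bases after the start of transcription, written 5′ to 3′ on the strand of the gene. Capitals mark TCACNCCA, a core of the sterol response element bound by SREBP, in the first pair, and an LXR-type element, GGTNA and GGTCA with any 5 bases between them, in the others, where it is read on the opposite strand and so appears as its reverse complement.
Hmgcs1: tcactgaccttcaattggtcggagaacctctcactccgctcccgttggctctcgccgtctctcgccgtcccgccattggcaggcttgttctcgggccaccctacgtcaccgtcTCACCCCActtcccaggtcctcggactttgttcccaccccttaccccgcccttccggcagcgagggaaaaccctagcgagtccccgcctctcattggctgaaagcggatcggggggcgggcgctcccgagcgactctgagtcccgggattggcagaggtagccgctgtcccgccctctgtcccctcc
Srebf2: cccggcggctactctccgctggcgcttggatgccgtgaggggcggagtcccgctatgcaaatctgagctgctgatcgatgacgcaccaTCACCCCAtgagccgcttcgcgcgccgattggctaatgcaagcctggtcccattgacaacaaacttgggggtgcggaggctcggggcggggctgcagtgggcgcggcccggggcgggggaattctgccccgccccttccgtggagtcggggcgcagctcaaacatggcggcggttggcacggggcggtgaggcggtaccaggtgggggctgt
Srebf1: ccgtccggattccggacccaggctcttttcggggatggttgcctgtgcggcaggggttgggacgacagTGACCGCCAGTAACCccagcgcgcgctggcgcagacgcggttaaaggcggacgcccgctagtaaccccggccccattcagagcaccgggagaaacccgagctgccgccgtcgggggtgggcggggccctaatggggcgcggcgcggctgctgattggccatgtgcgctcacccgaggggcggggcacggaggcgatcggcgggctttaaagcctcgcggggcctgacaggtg
Fasn: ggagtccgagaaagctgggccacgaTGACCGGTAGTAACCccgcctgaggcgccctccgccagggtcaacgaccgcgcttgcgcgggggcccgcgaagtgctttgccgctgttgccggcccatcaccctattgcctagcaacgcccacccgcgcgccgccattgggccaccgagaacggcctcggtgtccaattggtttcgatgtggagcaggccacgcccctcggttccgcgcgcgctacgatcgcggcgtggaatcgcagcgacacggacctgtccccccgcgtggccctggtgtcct
Abca1: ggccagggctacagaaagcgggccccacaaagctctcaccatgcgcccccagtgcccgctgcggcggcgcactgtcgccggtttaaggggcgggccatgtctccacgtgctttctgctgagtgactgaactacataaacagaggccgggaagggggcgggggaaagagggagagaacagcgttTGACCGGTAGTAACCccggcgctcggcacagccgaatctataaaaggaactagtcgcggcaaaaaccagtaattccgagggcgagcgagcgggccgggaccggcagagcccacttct
The windows lie at chr13:119690101-119690400, plus strand (Hmgcs1), chr15:82147019-82147318, plus strand (Srebf2), chr11:60210422-60210721, minus strand (Srebf1, 1 of 3 promoters of this gene), chr11:120824498-120824797, minus strand (Fasn) and chr4:53159846-53160145, minus strand (Abca1). The first base of the match lay at position -137, -162, -182, -225 and -67 from the start in the order printed. RefSeq windows were at hand for 28 of the 36 genes, and 9 spellings were searched on both strands. TCACNCCA was found in 3 of the 28 genes (Hmgcs1, Msmo1 and Srebf2) and in 4.97% of all 27025 genes with a window. The LXR-type element was found in 3 of the 28 (Abca1, Fasn and Srebf1) and in 0.226% of all genes. CCAAT, the box bound by NF-Y, was found in 20 of 28, against 41.1% of all genes, and the E-box CACGTG in 6 of 28, against 8.09%. A longer sterol element, TCACNCCAC, which holds the core, was in 1 of the 28 (1.44% of all genes), and its 3-prime form CACNCCAC in 3 (7.12%). A strict 10-letter sterol element, the E-box TCACGTGA and a perfect LXR repeat (AGGTCA repeated after a gap of 4 bases) were in 0 of the 28, against 0.0999%, 1.12% and 0.0148% of all genes. These are matches of letters, and binding was not measured.

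Totals were 17312119 to 61267763 estimated counts per library. Levels are given in CPM, the counts scaled to a common library size that includes the TMM factor. Called means past an adjusted p of 0.05 in edgeR's quasi-likelihood test with batch as a term, with Benjamini-Hochberg adjustment over all 15781 genes. The 7 T cell markers summed to 3808 to 4681 CPM in the STZ-macrophage co-culture, 4871 to 7727 CPM in the control-macrophage co-culture and 2986 to 5473 CPM in the cells alone, and none of the 7 was at 0. The sum of the 12 macrophage markers (CPM) was 21.3, 27.8, 101, 111 and 26.1 across STZ-macrophage replicates 1 to 5, 5.65, 6.06, 54.8 and 9.93 across control-macrophage replicates 1 to 4, and 1.41 to 3.22 across the cells alone, where Cd14 was at 0 in every library. The 7 islet endocrine markers reached 153 and 114 CPM in STZ-macrophage replicates 2 and 4 and stayed at or below 3.24 CPM elsewhere. B cell markers (5) summed to 1.05 to 2.00 CPM with STZ macrophages, 1.02 to 2.14 CPM with control macrophages and 6.13 to 21.1 CPM in the cells alone. CD8 and NK cell markers (4) summed to 11.4 to 19.8 CPM with STZ macrophages, 18.9 to 32.2 CPM with control macrophages and 15.7 to 39.1 CPM in the cells alone. The rank correlation between a gene's GC content and its deviation from the mean was 0.227, 0.00848, -0.109, -0.0183 and 0.232 in STZ-macrophage replicates 1 to 5, 0.0451, 0.107, -0.343 and -0.171 in control-macrophage replicates 1 to 4 and 0.133, 0.164, -0.106 and -0.195 in cells-alone replicates 1 to 4. In bulk RNA, fewer cells of a kind and less RNA per cell cannot be told apart.

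In relative terms (CPM), most mevalonate enzymes stood higher in the fraction sorted from both co-cultures than in the cells alone. In the STZ-macrophage co-culture 5 of the 7 were called higher and in the control-macrophage co-culture 6 of 7, and 0 were called lower in either. Over all genes tested, the STZ-macrophage co-culture had 20.8% called higher and 22.3% called lower than the cells alone, and the control-macrophage co-culture had 23.1% called higher and 22% called lower. The median log2 fold change of the 7 enzymes was 1.60 with STZ and 1.37 with control macrophages, against -0.05 with STZ and -0.13 with control macrophages over all genes. The 2 comparisons share the cells-alone libraries and are given side by side for this reason. The macrophage marker sum was also higher in every co-culture than in every cells-alone library, and fits with it as a term are given further on. With library totals as the only scaling, the median over all genes was -0.17 with STZ and -0.45 with control macrophages.

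Idi1 (chr13:8885501-8892451), the isomerase that makes the isoprenoid building block dimethylallyl diphosphate, measured 245, 402, 393, 329.6 and 264 CPM across STZ-macrophage replicates 1 to 5, against 278, 296, 646 and 312 CPM in control-macrophage replicates 1 to 4 and 45.5, 22.8, 59.4 and 42.0 CPM in cells-alone replicates 1 to 4. Every co-culture library lay above every cells-alone library, and control-macrophage replicate 3 lay far above the other co-cultures. The share of all genes that separated from the cells alone without overlap was not computed, for this gene or those below. The log2 fold change was 2.45 (SE 0.27, adjusted p = 1.68e-05) in the STZ-macrophage co-culture and 2.89 (SE 0.26, adjusted p = 3.46e-06) in the control-macrophage co-culture, each against the cells alone. Mvd (chr8:122433601-122443422), the decarboxylase one step earlier, was at 59.5, 56.4, 43.8, 50.9 and 64.5 CPM in the STZ-macrophage co-culture, at 43.9, 47.2, 22.8 and 39.9 CPM in the control-macrophage co-culture and at 6.54, 9.02, 10.9 and 8.05 CPM in the cells alone. Here too the co-cultures did not overlap the cells alone, but control-macrophage replicate 3 was the lowest co-culture. The log2 fold changes against the cells alone were 2.99 (SE 0.25, adjusted p = 2.23e-06) with STZ macrophages and 2.25 (SE 0.23, adjusted p = 8.12e-06) with control macrophages. Hmgcs1 (chr13:119690379-119708260), the synthase that makes HMG-CoA and carries the first promoter above, was at 270.1, 269, 256, 224 and 268 CPM with STZ macrophages, 230.1, 199.9, 310.3 and 234 CPM with control macrophages and 142, 56.1, 83.0 and 86.4 CPM in the cells alone. Its 9 co-culture libraries spanned a 1.55-fold range, all above the cells-alone libraries, with log2 fold changes of 1.41 (SE 0.26, adjusted p = 0.000933) with STZ and 1.37 (SE 0.25, adjusted p = 0.000843) with control macrophages. About 12.1% of the exonic bases of Hmgcs1 and 9.22% of those of Idi1 overlap a gene model on the other strand, and the library kit keeps no strand.

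Of the other mevalonate genes, Acat2, the thiolase that opens the pathway, and Fdps, the synthase of farnesyl diphosphate, were called higher in both comparisons. Acat2 had log2 fold changes of 0.76 (adjusted p = 0.0259) with STZ and 0.79 (adjusted p = 0.0169) with control macrophages, and Fdps of 1.60 (adjusted p = 0.00276) with STZ and 1.64 (adjusted p = 0.00195) with control macrophages. Between 35.3% (Acat2, with Acat3) and 75.8% (Fdps, most with Gm43738) of the 100-base windows of their transcripts recur in another gene, as do 20% of those of Idi1 (Gm13502), so that their counts are uncertain. Pmvk, the kinase of phosphomevalonate, was called higher with control macrophages, 1.00 (adjusted p = 0.00605), and stood at 0.60 (adjusted p = 0.0853) with STZ macrophages. Mvk, the kinase of mevalonate, was called in neither, at 1.68 (adjusted p = 0.0601) with STZ and 0.87 (adjusted p = 0.246) with control macrophages. The Acat2 call in the STZ-macrophage comparison was lost without STZ-macrophage replicate 1 (adjusted p = 0.0942) or replicate 5 (adjusted p = 0.120), and without control-macrophage replicate 3 its log2 fold change was 1.15. It was also lost with the GC correction, the macrophage sum as a term, the replicate block and without STZ-macrophage replicates 1 and 5. The control-macrophage call of Acat2 held in 21 of 26 alternatives and was lost with library totals (adjusted p = 0.0565), day 1 libraries only (0.0542), only these 2 groups (0.0985), the GC correction (0.0823) and the macrophage sum as a term (0.282). That of Pmvk held in 23 of 26, and those of Fdps in 23 of 26 with STZ and 25 of 26 with control macrophages. In the authors' deposited table of adjusted log2 values, limma called Mvk lower with control macrophages (-1.52, adjusted p = 0.0069), while DESeq2 called it higher with STZ macrophages (1.87, adjusted p = 0.0156).

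**Figure D1:**
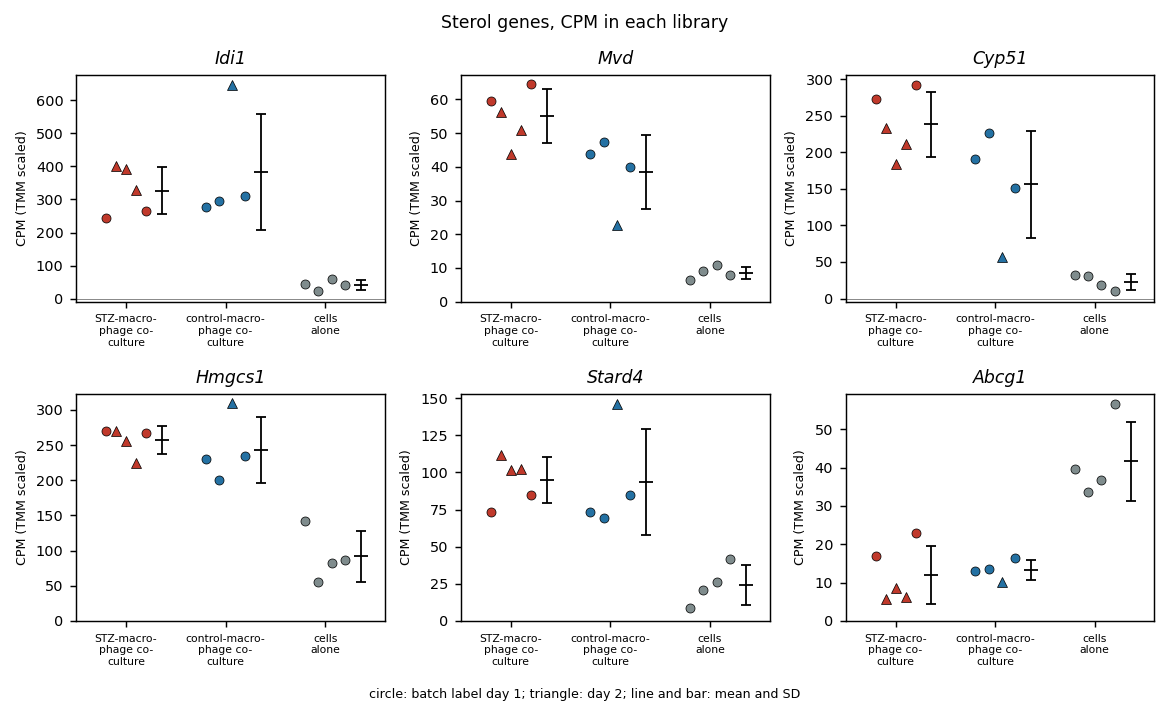
CPM (TMM scaled) of 6 sterol genes in each library, with the STZ-macrophage co-culture on the left, the control-macrophage co-culture in the middle and the cells alone on the right; circles are day 1 and triangles day 2 libraries, and the line with its bar is the mean with its SD. Idi1, Mvd, Cyp51, Hmgcs1 and Stard4 stood higher, and Abcg1 lower, in every co-culture library than in every cells-alone library. The share of all genes that separated in this way was not computed.

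From squalene to cholesterol, 6 of 11 enzymes were called higher in the STZ-macrophage co-culture and 8 of 11 in the control-macrophage co-culture, each against the cells alone, and 0 were called lower. Over all genes 20.8% were called higher with STZ and 23.1% with control macrophages. The median log2 fold change of the 11 was 0.84 with STZ macrophages and 1.22 with control macrophages, against -0.05 with STZ and -0.13 with control macrophages over all genes. Cyp51 (chr5:4081145-4104746), the demethylase that acts on lanosterol, was at 273, 233, 184, 211 and 292 CPM in the STZ-macrophage co-culture, at 191, 226, 56.4 and 151 CPM in the control-macrophage co-culture and at 32.1, 30.6, 18.2 and 9.86 CPM in the cells alone. All co-cultures lay above all cells-alone libraries, with control-macrophage replicate 3 the lowest of them. Its log2 fold changes were 3.94 (SE 0.42, adjusted p = 1.44e-05) with STZ and 2.89 (SE 0.37, adjusted p = 5.85e-05) with control macrophages. Lss (chr10:76531588-76557138), the cyclase that makes lanosterol, was at 118, 154, 131, 128 and 123 CPM with STZ macrophages, 79.6, 86.7, 155 and 87.6 CPM with control macrophages and 26.3, 34.6, 50.03 and 46.9 CPM in the cells alone. Again no co-culture overlapped the cells alone, and the STZ-macrophage libraries lay above control-macrophage replicates 1, 2 and 4 but not above replicate 3. The log2 fold changes of Lss were 1.45 (SE 0.24, adjusted p = 0.000359) with STZ and 1.22 (SE 0.23, adjusted p = 0.000919) with control macrophages.

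Hsd17b7 (chr1:169949535-169969241), a keto-reductase of sterol demethylation, was at 49.8, 82.9, 68.1, 63.6 and 47.4 CPM with STZ macrophages, 54.6, 47.7, 105 and 63.2 CPM with control macrophages and 15.01, 11.8, 22.3 and 28.4 CPM in the cells alone. Its groups did not overlap between co-cultures and cells alone, and the log2 fold changes were 1.24 (SE 0.28, adjusted p = 0.00359) with STZ and 1.57 (SE 0.27, adjusted p = 0.000511) with control macrophages. Sqle (chr15:59315077-59331192), the epoxidase of squalene and a rate-limiting enzyme, was at 194, 105, 44.1, 83.2 and 175 CPM with STZ macrophages, 90.8, 116, 15.8 and 41.8 CPM with control macrophages and 47.9, 34.0, 8.79 and 5.74 CPM in the cells alone. Both co-cultures overlapped the cells alone, the lowest value among co-cultures was in control-macrophage replicate 3, and the range over the 9 co-cultures was 12.3-fold. Sqle was called at 3.20 (SE 0.70, adjusted p = 0.0028) with STZ macrophages and at 1.63 (SE 0.61, adjusted p = 0.0445) with control macrophages. The control-macrophage call was lost in 8 of 13 fits that each left out 1 library, with adjusted p of 0.0534 to 0.129. These were the fits without STZ-macrophage replicate 1, 3, 4 or 5, control-macrophage replicate 1 or 2, or cells-alone replicate 3 or 4. Over all alternatives the control-macrophage call held in 9 of 26, and was also lost with library totals, no filter, no batch term, day 1 libraries only, only these 2 groups, the GC correction, the macrophage sum as a term and without STZ-macrophage replicates 1 and 5 (adjusted p of 0.0508 to 0.123). In the authors' deposited table of adjusted log2 values its sign turned (-1.28, adjusted p = 0.032 in limma). The STZ-macrophage call of Sqle held in 23 of 26 and was lost in that table (0.55, adjusted p = 0.319), with the macrophage sum as a term (adjusted p = 0.0566) and without STZ-macrophage replicates 1 and 5 (adjusted p = 0.0654).

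Dhcr7, the reductase that completes cholesterol, was called in both comparisons, at 0.64 (adjusted p = 0.0282) with STZ and 0.91 (adjusted p = 0.00307) with control macrophages. Tm7sf2, a sterol reductase after Cyp51, passed with STZ macrophages, at 1.78 (adjusted p = 0.0209), and stood at 1.35 (adjusted p = 0.0522) with control macrophages. Without STZ-macrophage replicate 1 the adjusted p was 0.0927 for Dhcr7 and 0.0606 for Tm7sf2, and without replicate 5 it was 0.124 for Dhcr7 and 0.0686 for Tm7sf2. In the same comparison Dhcr7 was at 0.97 without control-macrophage replicate 3, and Tm7sf2 at 2.86 without cells-alone replicate 2. Over all alternatives, the STZ-macrophage calls held in 18 of 26 for Dhcr7 and 18 of 26 for Tm7sf2. With the replicate number as a block, a pairing that the labels do not give, Tm7sf2 was called with control macrophages too (1.46, adjusted p = 0.0398). Called with control macrophages were Fdft1, the squalene synthase, at 1.01 (adjusted p = 0.00796), Nsdhl, a dehydrogenase of sterol demethylation, at 1.38 (adjusted p = 0.00958), and Ebp, a sterol isomerase, at 0.97 (adjusted p = 0.0028). With STZ macrophages these were at 0.70 (adjusted p = 0.0572), 0.84 (adjusted p = 0.0954) and 0.38 (adjusted p = 0.202), in the same order of genes. Msmo1, a methylsterol oxidase, and Sc5d, a sterol desaturase, were called in neither, with Msmo1 at 0.41 with STZ and 0.53 with control macrophages and Sc5d at -0.53 with STZ and -0.14 with control macrophages. About 18.3% of the exonic bases of Fdft1 overlap Ctsb on the other strand, and 12.1% of those of Tm7sf2 overlap Vps51 on the same strand.

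Most genes that control the enzymes varied widely between libraries of 1 group, and none of them passed the test over both days. Of the 5 genes of SREBP control, edgeR called 0 in either comparison with the cells alone. At an unadjusted p under 0.05, 1 of the 5 was lower with STZ macrophages and 0 differed with control macrophages, where 24.7% of all genes were higher and 26.5% lower with STZ and 26.3% higher and 26.4% lower with control macrophages. DESeq2 called 0 of the 5, and the fit with only STZ-macrophage and cells-alone libraries called Srebf1 higher. With library totals as the scaling, or with the correction for GC content, Insig2 was called lower with both kinds of macrophages, and Insig1 was called lower with control macrophages with that correction or with no batch term. With each library's GC correlation as a term, Srebf2 was called lower with STZ macrophages (-0.92, adjusted p = 0.0157). In the authors' deposited table of adjusted log2 values, limma called Srebf1 and Srebf2 lower with both kinds of macrophages and, with control macrophages, Scap lower and Insig2 higher. For the calls in these alternative fits, the shares over all genes in the same direction are not given, so the calls cannot be set against them. Srebf2 (chr15:82147181-82205379), the SREBP of the sterol genes, was at 307, 87.5, 25.3, 58.4 and 291 CPM with STZ macrophages, 93.5, 213, 11.2 and 30.4 CPM with control macrophages and 328, 281, 54.1 and 27.6 CPM in the cells alone. Libraries of 1 group lay more than 10-fold apart, with STZ-macrophage replicates 1 and 5 and cells-alone replicates 1 and 2 high, and all groups overlapped. The log2 fold change was 1.00 (SE 0.85, adjusted p = 0.365) with STZ and -0.75 (SE 0.75, adjusted p = 0.441) with control macrophages. The ratio of mean CPM to the cells alone, which has no batch term, was 0.892 with STZ and 0.504 with control macrophages. With STZ macrophages its direction thus differed from that of the fit with a batch term. Srebf1 (chr11:60199089-60222581), the SREBP that leads fatty acid synthesis and an LXR target, was at 162, 9.66, 7.57, 9.52 and 144 CPM with STZ macrophages, 11.4, 30.5, 7.003 and 9.40 CPM with control macrophages and 37.4, 82.8, 12.9 and 11.6 CPM in the cells alone. STZ-macrophage replicates 1 and 5 stood apart from all other libraries, the other 3 were as low as the control-macrophage co-culture, and the log2 fold changes were 1.499 (SE 0.71, adjusted p = 0.108) with STZ and -0.49 (SE 0.77, adjusted p = 0.628) with control macrophages. Scap, the escort of SREBP, ranged over 7.84 to 52.6 CPM with STZ macrophages, 5.84 to 11.4 CPM with control macrophages and 10.9 to 59.7 CPM in the cells alone. Insig1, which holds SREBP back, ranged over 2.95 to 24.3 CPM with STZ macrophages, 3.96 to 5.21 CPM with control macrophages and 4.30 to 49.2 CPM in the cells alone, with STZ-macrophage replicate 1 and cells-alone replicate 2 the high ends. Insig2, its relative, was steadier, at 47.0 to 58.8 CPM with STZ macrophages, 45.7 to 94.0 CPM with control macrophages and 45.5 to 99.8 CPM in the cells alone. Within day 1, Srebf1 was called higher with STZ macrophages than in the cells alone, at 2.09 (SE 0.68, adjusted p = 0.0299), and Insig1 and Scap were called lower with control macrophages, at -2.18 (adjusted p = 0.0332) and -1.56 (adjusted p = 0.0445).

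Among the genes of transport, efflux and LXR, 1 of 5 was called higher and 2 of 5 lower in each comparison with the cells alone, where 20.8% (STZ) and 23.1% (control macrophages) of all genes were called higher and 22.3% (STZ) and 22% (control macrophages) lower, so the count higher does not exceed the background. Stard4, a carrier that moves sterols between membranes and an SREBP target, was at 73.1, 112, 102, 102 and 85.1 CPM with STZ macrophages, 73.4, 69.4, 146 and 84.9 CPM with control macrophages and 8.87, 20.6, 26.2 and 41.5 CPM in the cells alone. All co-cultures lay above all cells-alone libraries, with log2 fold changes of 1.58 (SE 0.38, adjusted p = 0.00476) with STZ and 1.73 (SE 0.36, adjusted p = 0.00202) with control macrophages. Abcg1 (chr17:31057675-31117988), an LXR-driven transporter that exports cholesterol, moved the other way. It was at 16.9, 5.85, 8.64, 6.16 and 23.0 CPM with STZ macrophages, 12.95, 13.5, 10.1 and 16.4 CPM with control macrophages and 39.6, 33.7, 36.8 and 56.7 CPM in the cells alone, with no overlap, and log2 fold changes of -1.30 (SE 0.31, adjusted p = 0.00439) with STZ and -1.37 (SE 0.30, adjusted p = 0.00272) with control macrophages. Nr1h3 (chr2:91184061-91202834), which encodes LXR alpha, was at 0.711, 0.743, 0.825, 1.39 and 0.333 CPM with STZ macrophages, 0.172, 0.279, 0.185 and 0.0330 CPM with control macrophages and 6.02, 2.40, 3.09 and 1.52 CPM in the cells alone. All cells-alone libraries lay above all co-cultures, at a level of a few CPM, and the log2 fold changes were -2.47 (SE 0.75, adjusted p = 0.0175) with STZ and -4.37 (SE 0.70, adjusted p = 0.000305) with control macrophages. Without control-macrophage replicate 3 the log2 fold change of Abcg1 with STZ macrophages was -0.85 (adjusted p = 0.0401). Without STZ-macrophage replicate 5 the STZ-macrophage call of Nr1h3 was lost (-2.08, adjusted p = 0.0914). Over all alternatives that call held in 19 of 25. Nr1h2, which encodes LXR beta, and the efflux transporter Abca1 were not called. Nr1h2 was at 117, 7.01, 2.71, 5.30 and 112 CPM with STZ macrophages, 7.30, 28.8, 2.04 and 3.23 CPM with control macrophages and 97.9, 184, 12.5 and 6.88 CPM in the cells alone, with the same high libraries as Srebf2, and Abca1 reached at most 1.99 CPM, in STZ-macrophage replicate 1.

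**Figure D2:**
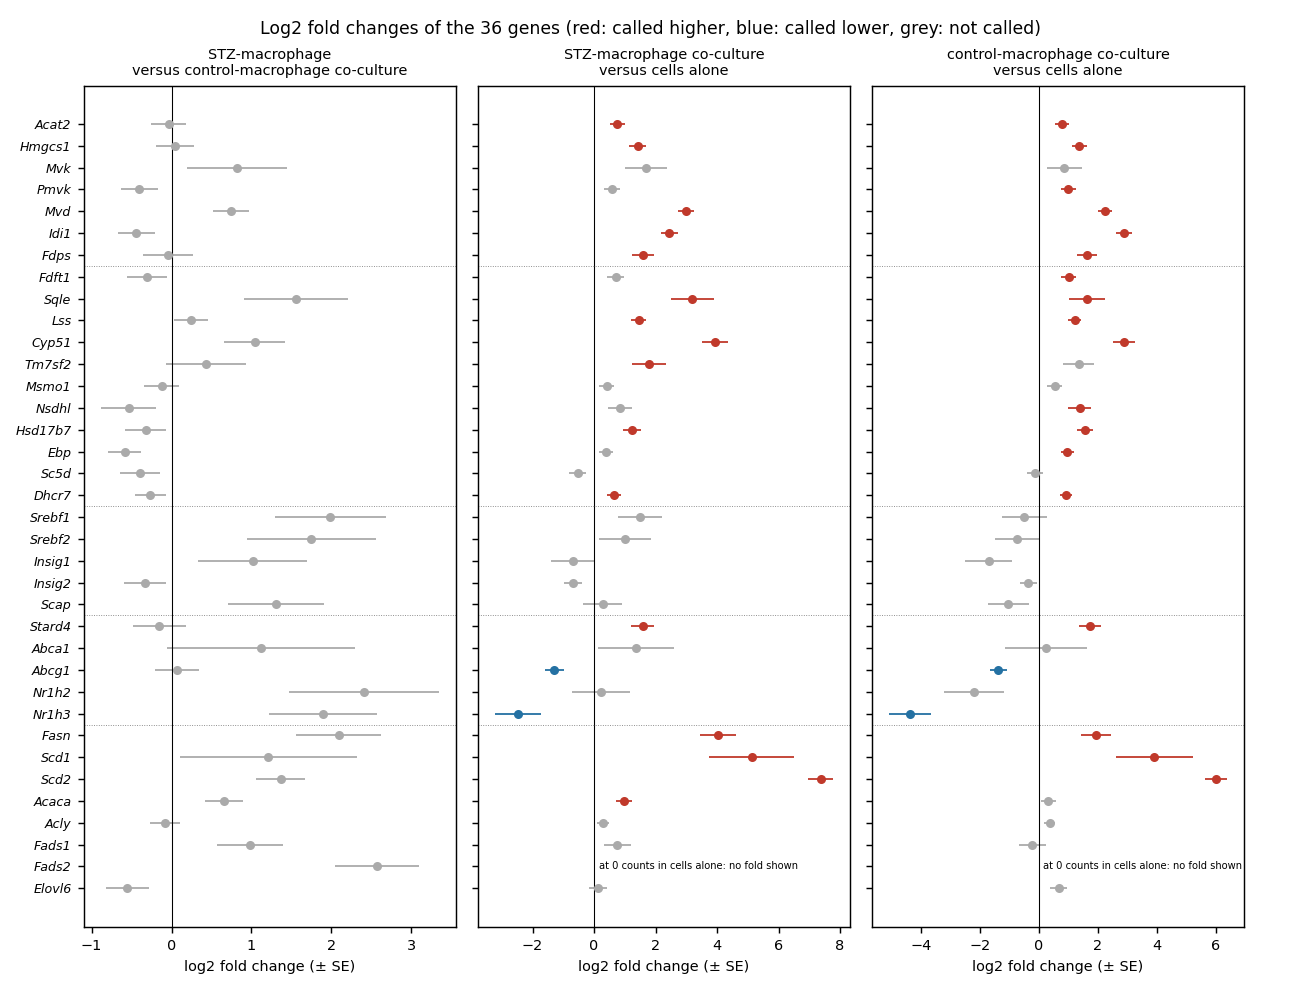
Log2 fold changes with their SE of the 36 genes in STZ-macrophage against control-macrophage co-culture (left), STZ-macrophage co-culture against cells alone (middle) and control-macrophage co-culture against cells alone (right), grouped by role between dotted lines; red is called higher, blue called lower and grey not called. Calls appear in both comparisons with the cells alone and in 0 of 36 genes between the co-cultures; Fads2 has no fold against the cells alone because it had 0 counts there.

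Among the 36 genes, the largest rises over the cells alone were in fatty acid desaturases. Of the 8 fatty acid genes, 5 were called higher in the STZ-macrophage co-culture and 4 in the control-macrophage co-culture, each against the cells alone, where 20.8% of all genes were called higher with STZ and 23.1% with control macrophages. Their median log2 fold change was 2.50 with STZ and 1.31 with control macrophages. Scd2 (chr19:44293674-44306864), a stearoyl-CoA desaturase that makes monounsaturated fatty acids, was at 940.4, 518, 446, 471 and 934 CPM with STZ macrophages, 289.7, 384, 210.1 and 329.6 CPM with control macrophages and 2.73, 3.64, 5.53 and 9.63 CPM in the cells alone. The 3 groups did not overlap, and the highest STZ-macrophage libraries were replicates 1 and 5. The log2 fold changes against the cells alone were 7.37 (SE 0.41, adjusted p = 8.91e-08) with STZ and 6.001 (SE 0.38, adjusted p = 2.06e-07) with control macrophages. Per kilobase of exon, Scd2 had a median of 94.8 CPM with STZ macrophages, ranking 2 of the 36 genes, 56.7 CPM with control macrophages, ranking 5, and 0.839 CPM in the cells alone, ranking 31. Acly, the citrate lyase that supplies acetyl-CoA, ranked 1 of 36 in all 3 groups, with medians per kilobase of 151 CPM with STZ macrophages, 147 CPM with control macrophages and 102 CPM in the cells alone, and was called in neither comparison.

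Fads2 (chr19:10062765-10101746), a desaturase of polyunsaturated fatty acid synthesis, was at 75.7, 9.92, 6.25, 11.6 and 83.1 CPM with STZ macrophages and 6.51, 21.1, 2.25 and 3.86 CPM with control macrophages, against 0 counts in all 4 cells-alone libraries. Set against a floor of 3 counts over that group, the pooled libraries were at least 1641-fold higher with STZ and at least 487-fold higher with control macrophages (edgeR's adjusted p = 5.55e-06 with STZ and 1.60e-05 with control macrophages). These bounds are for pooled counts and do not hold for each library. STZ-macrophage replicates 1 and 5 held 3090 and 2997 of the 7196 counts of their group. Without replicate 1 the bound was 1183-fold, and without replicate 5 it was 1174-fold. Control-macrophage replicate 2 held 1286 of the 1665 Fads2 counts of its group, and without it the bound was 184-fold. Without cells-alone replicate 3, which lowers the depth behind the 0, the bounds were 1093-fold with STZ and 324-fold with control macrophages. Fasn (chr11:120805846-120824547), the fatty acid synthase, was at 406, 148, 87.9, 102 and 419 CPM with STZ macrophages, 97.4, 181, 21.1 and 52.5 CPM with control macrophages and 41.8, 46.0, 11.2 and 10.7 CPM in the cells alone. STZ-macrophage libraries lay above all cells-alone libraries, while the control-macrophage group overlapped them through replicate 3. The log2 fold changes were 4.03 (SE 0.59, adjusted p = 0.000164) with STZ and 1.94 (SE 0.52, adjusted p = 0.00883) with control macrophages. The ratio of mean CPM to the cells alone, which has no batch term, was 8.48 with STZ and 3.21 with control macrophages. Scd1, the second stearoyl-CoA desaturase measured, was at 47.3, 23.2, 23.9, 23.4 and 45.2 CPM with STZ macrophages, 14.1, 18.8, 14.1 and 15.2 CPM with control macrophages and 0, 4.71, 0 and 0.146 CPM in the cells alone. No co-culture overlapped the cells alone, with log2 fold changes of 5.13 (adjusted p = 0.00943) with STZ and 3.92 (adjusted p = 0.0265) with control macrophages. Without cells-alone replicate 2, which held most of that group's counts, they were 9.90 with STZ and 8.496 with control macrophages. The control-macrophage call of Scd1 held in 19 of 25 alternatives. It was lost with library totals (adjusted p = 0.0502), no filter (0.0768), day 1 libraries only (0.0725), only these 2 groups (0.125), the macrophage sum as a term (0.159) and without STZ-macrophage replicates 1 and 5 (0.0539). The last 2 also ended its STZ-macrophage call.

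Acaca, the acetyl-CoA carboxylase that commits carbon to fatty acids, was at 27.0, 16.7, 24.1, 21.3 and 21.7 CPM with STZ macrophages, 11.9, 14.3, 17.3 and 12.4 CPM with control macrophages and 13.5, 11.5, 9.49 and 10.0 CPM in the cells alone. It was called with STZ macrophages, at 0.98 (adjusted p = 0.00962), where the groups did not overlap, and stood at 0.32 (adjusted p = 0.315) with control macrophages. Over all alternatives the call held in 20 of 26, and was lost without STZ-macrophage replicate 1 (adjusted p = 0.0702), and 42.8% of the 100-base windows of its transcript recur elsewhere, in Gm5182. Fads1, the second desaturase of polyunsaturated fatty acids, and Elovl6, an elongase of saturated fatty acids, were called in neither comparison. Fads1 was at 0.76 with STZ and -0.22 with control macrophages, and Elovl6 at 0.12 with STZ and 0.68 with control macrophages on the log2 scale.

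All cells-alone libraries are of day 1. Within day 1, in a model with a mean for each group and day, 15 sterol and 5 fatty acid genes were called higher and 2 sterol genes lower when the STZ-macrophage co-culture was set against the cells alone (19.5% of all genes higher, 19.3% lower). In the control-macrophage co-culture of day 1, 15 sterol and 4 fatty acid genes were called higher and 4 sterol genes lower (23.1% and 21.8% of all genes). The counts over both days were 12 sterol and 5 fatty acid genes higher and 2 lower for the STZ-macrophage co-culture, and 15 and 4 higher and 2 lower for the control-macrophage co-culture. Without STZ-macrophage replicates 1 and 5, which leaves that group on day 2, 3 sterol genes (Mvd, Idi1 and Cyp51) and 3 fatty acid genes (Fasn, Scd2 and Fads2) remained called higher than in the cells alone, against 10.3% of all genes, and Abcg1 lower (8.92% of all genes). With the macrophage marker sum as a term the same 7 genes were called in the STZ-macrophage comparison (8.02% of all genes higher, 6.15% lower), and 8 sterol and 3 fatty acid genes were called higher in the control-macrophage comparison (14.9% of all genes). Both alternatives were chosen after the data had been seen.

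**Figure D3:**
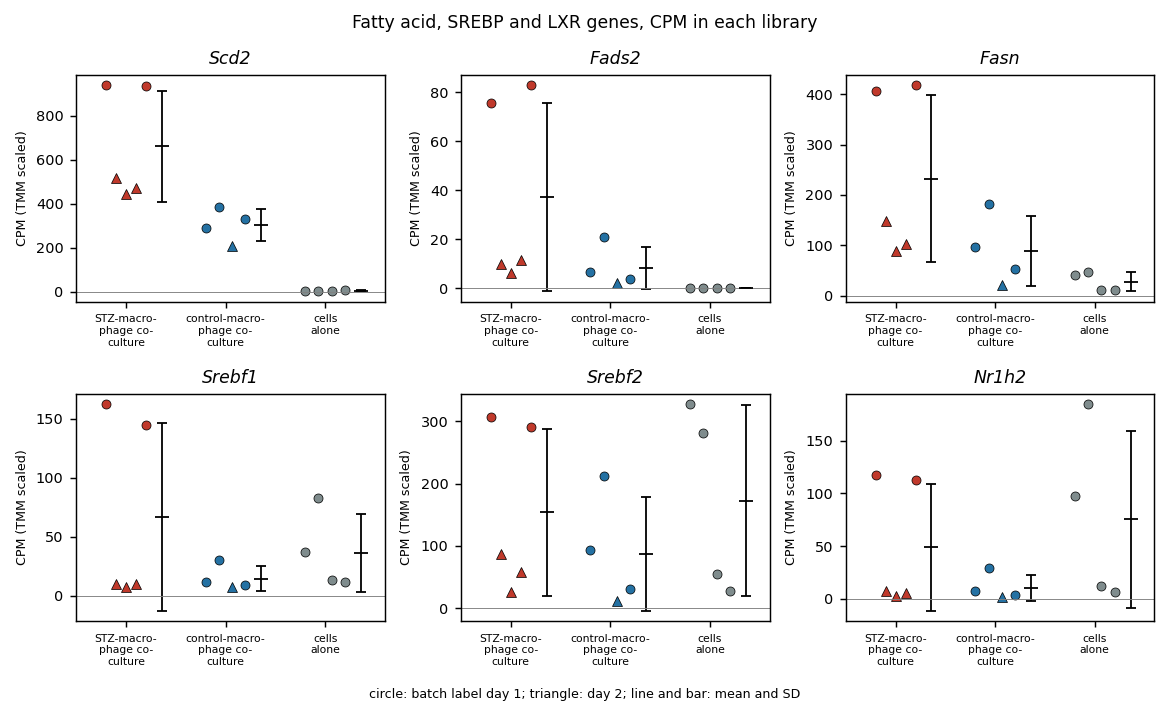
CPM (TMM scaled) of 3 fatty acid genes, Srebf1, Srebf2 and Nr1h2 in each library, with groups, symbols and bars as in the plot of sterol genes by library. STZ-macrophage replicates 1 and 5 (day 1) lie above replicates 2 to 4 (day 2) in all 6 genes, and Fads2 is at 0 in all cells-alone libraries.

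Between the co-cultures, which differ in the macrophages' donors, 0 of 28 sterol and 0 of 8 fatty acid genes were called in either direction, where 0.152% of all genes were called higher and 0.171% lower. At an unadjusted p under 0.05, 7 sterol and 5 fatty acid genes were higher with STZ macrophages and 1 sterol gene was lower, against 7.99% higher and 14.8% lower over all genes. The median log2 fold change was 0.06 for the sterol genes and 1.10 for the fatty acid genes, against -0.13 over all genes. By role, the median was 1.30 for SREBP control, 1.12 for transport, efflux and LXR, -0.27 for the enzymes from squalene to cholesterol and -0.04 for the mevalonate enzymes, where it turned positive with RLE (0.07) and library totals (0.17). The median over all genes depended on the scaling, at -0.03 with RLE and 0.07 with library totals alone. The fatty acid median was 1.20 with RLE and 1.30 with library totals, and the sterol median 0.16 with RLE and 0.27 with library totals. The macrophage marker sum was 21.3 to 111 CPM with STZ and 5.65 to 54.8 CPM with control macrophages, and with it as a term 0 of the 36 were called.

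The genes with the smallest p were Scd2, Fads2, Fasn, Mvd, Ebp and Srebf1. Scd2 averaged 662 ± 253 CPM with STZ macrophages (SD, n = 5) and 303 ± 73.3 CPM with control macrophages (SD, n = 4), with every STZ-macrophage library above every control-macrophage library. Its log2 fold change was 1.37 (SE 0.31, adjusted p = 0.0819), with 1.49 (SE 0.39) within day 1 and 1.19 (SE 0.54) within day 2. Fads2 averaged 37.3 ± 38.6 CPM with STZ and 8.44 ± 8.64 CPM with control macrophages, with overlap, which gave 2.57 (SE 0.53, adjusted p = 0.0849) on the log2 scale, with 2.91 (SE 0.66) within day 1 and 2.04 (SE 0.95) within day 2. For Fasn the means were 233 ± 166 CPM with STZ and 88.0 ± 69.5 CPM with control macrophages, the groups overlapped, and the log2 fold change was 2.09 (SE 0.53, adjusted p = 0.119), at 1.90 (SE 0.64) within day 1 and 2.42 (SE 0.96) within day 2.

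Mvd averaged 55.0 ± 7.97 CPM with STZ and 38.5 ± 10.9 CPM with control macrophages and overlapped, at 0.74 (SE 0.23, adjusted p = 0.148), with 0.51 (SE 0.26) on day 1 and 1.14 (SE 0.35) on day 2. Of the 6 genes only Ebp had a negative value, with 132 ± 23.0 CPM with STZ against 176 ± 47.2 CPM with control macrophages, at -0.59 (SE 0.20, adjusted p = 0.163), with -0.50 (SE 0.27) on day 1 and -0.73 (SE 0.33) on day 2. Without control-macrophage replicate 3 it was -0.35 (adjusted p = 0.64) and without replicate 4 it was -0.38 (adjusted p = 0.531). Srebf1 averaged 66.7 ± 79.4 CPM with STZ against 14.6 ± 10.8 CPM with control macrophages, at 1.99 (SE 0.70, adjusted p = 0.163), with 3.16 (SE 0.76) on day 1 and 0.35 (SE 0.97) on day 2. In Srebf1 the SD with STZ macrophages exceeded the mean, since 2 of 5 libraries held nearly all of it, and without control-macrophage replicate 3 its log2 fold change was 3.30 (adjusted p = 0.0802). Beside Scd2, Scd1 and Nr1h3 were the members whose STZ-macrophage libraries all lay above the control-macrophage libraries, with 1.21 (adjusted p = 0.5) for Scd1 and 1.90 (adjusted p = 0.166) for Nr1h3. Nr1h3 rested on few counts, 12 to 45 per STZ-macrophage library and 1 to 17 per control-macrophage library, and these overlapped before scaling. The share of all genes whose co-cultures separated in this way was not computed.

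Whether these genes passed depended on what shared the fit. Fitted to the 9 co-cultures alone, 6 sterol genes (Mvd, Sqle, Lss, Cyp51, Srebf1 and Nr1h2) and 6 fatty acid genes (Fasn, Scd1, Scd2, Acaca, Fads1 and Fads2) were called higher with STZ macrophages and Ebp lower. That fit called 10.1% of all genes higher and 8.06% lower. DESeq2 called Mvd, Cyp51, Nr1h3, Fasn, Scd2, Acaca and Fads2 higher, where it called 3.14% of all genes higher. In the authors' deposited table of adjusted log2 values, limma called Sqle, Cyp51, Fasn and Scd2 higher, against 3.22% of all genes. Leaving out cells-alone replicate 2 led to calls of Mvd, Scd2, Fads2 and Fasn (adjusted p of 0.0488, 0.0223, 0.0321 and 0.0375), and leaving out cells-alone replicate 1 or 4 to a call of Scd2 (0.0377 and 0.0278).

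Within day 1, 0 of the 36 genes were called between the co-cultures (0.171% of all genes higher, 0.0444% lower), and within day 2, where 1 control-macrophage library stands for its group, 0 of 36 (0% in either direction). At an unadjusted p under 0.05, 4 sterol and 5 fatty acid genes were higher and 0 lower on day 1 (9.75% and 6.55% of all genes) and 2 sterol and 2 fatty acid genes higher and 2 sterol and 1 fatty acid gene lower on day 2 (8.48% and 5.54% of all genes). The sterol genes had a median log2 fold change of 0.38 on day 1, against -0.19 over all genes, and -0.49 on day 2, against -0.16. The fatty acid genes had medians of 1.51 on day 1 and 0.49 on day 2. Since a single library has no spread of its own, the SE and p within day 2 and for the difference between days borrow the spread of the remaining groups, on the assumption that it holds for this library too. A test of this difference called 0 of the 36 genes in edgeR (0% of all genes with the larger value on day 2, 0.00634% on day 1). At an unadjusted p under 0.05 0 of the 36 had the larger value on day 2 (5.97% of all genes) and 3 sterol genes on day 1 (3.85% of all genes). Without cells-alone replicate 2, 1 gene of SREBP control was called, with the larger value on day 1.

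The co-culture libraries split the 36 genes into sets by which library was highest. In 17 of the 36, STZ-macrophage replicates 1 and 5 were the highest pair of the 9 co-cultures, as in 17.5% of all genes. In 16 of 36, control-macrophage replicate 3 was highest, as in 32% of all genes, and the other 3 genes (Nr1h3, Acaca and Acly) followed neither. The first set held 4 of 5 genes of SREBP control, Sqle, Cyp51, Tm7sf2, Mvk, Mvd, Abca1, Abcg1, Nr1h2 and 5 of the 8 fatty acid genes. Its range over the co-cultures reached 57.7-fold in Nr1h2, 36.9-fold in Fads2, 27.3-fold in Srebf2 and 23.2-fold in Srebf1. The second set held Idi1, Hmgcs1, Fdps, Lss, Dhcr7, Stard4 and other enzymes, with ranges of at most 2.75-fold.

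These sets differed in base composition. The median GC content of the transcripts was 54.4% (46.2 to 60.6%) in the first set and 45.9% (41.9 to 56.95%) in the second, and over all genes with the same patterns it was 52.6% and 46.4%. Over the 36 genes, the log2 ratio of STZ-macrophage replicates 1 and 5 to replicates 2 to 4 followed GC content with a Spearman rho of 0.48, and over 15300 genes with 0.24. These points share the same 5 libraries and their depth, and the values are descriptive. The ratio was above 1 (log2) in 12 of 36 genes, or 33.3%, against 17.8% of all genes. Replicates 1 and 5 had the lowest macrophage sums of their group (21.3 and 26.1 CPM), though replicate 2, of day 2, was close at 27.8 CPM. Replicates 1 and 5 also carry the day 1 label, which cannot be told apart from their other features. Control-macrophage replicate 3 is the only day 2 library of its group and had its highest macrophage sum (54.8 CPM). The part of GC content, batch or macrophage RNA in these patterns was not tested gene by gene. A correction for GC content, chosen after the data had been seen, left 9 sterol and 4 fatty acid genes called higher with STZ macrophages (16.1% of all genes) and 11 and 4 with control macrophages (18.6% of all genes), against the cells alone.

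**Figure D4:**
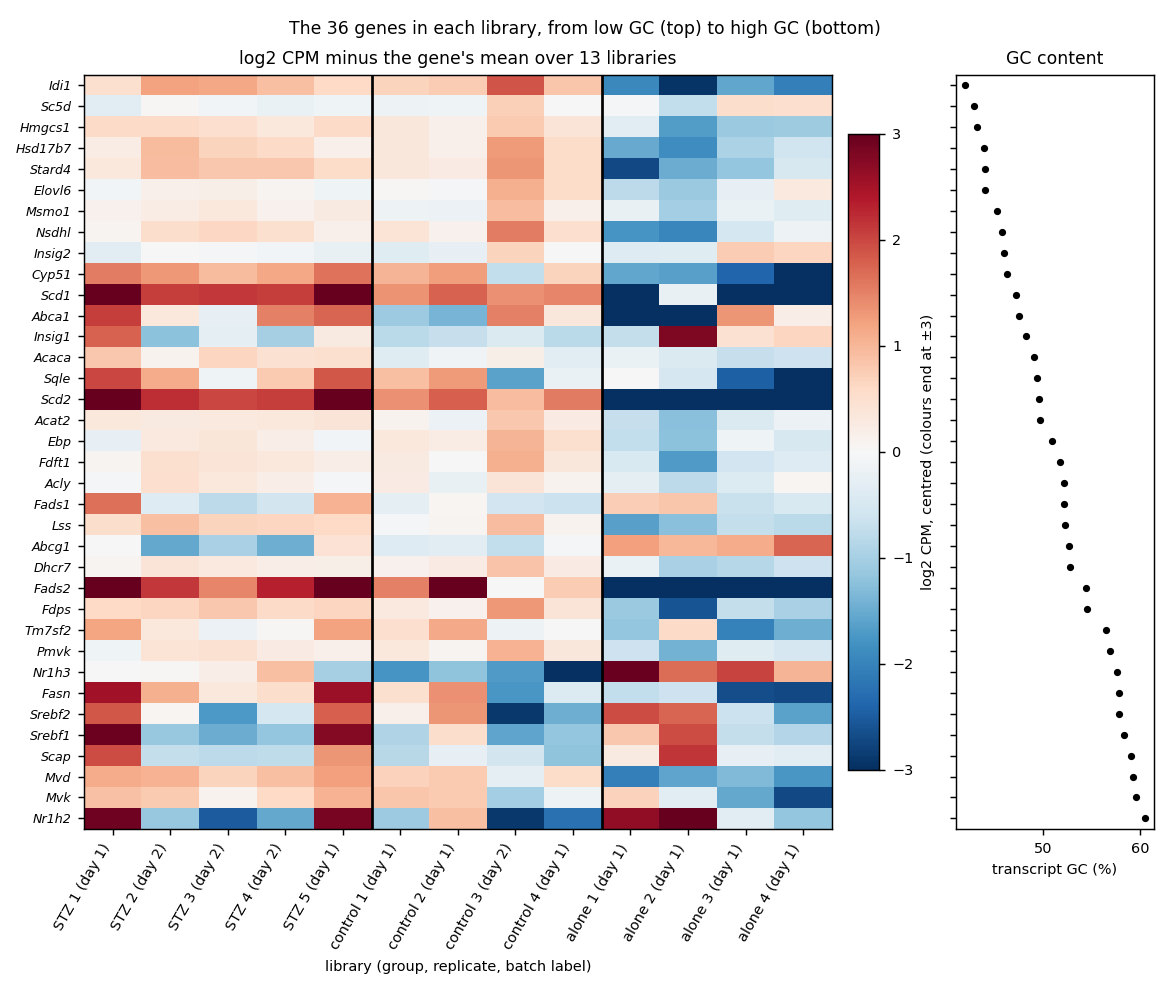
Log2 CPM of each of the 36 genes minus its mean over the 13 libraries (left panel; columns are libraries in the order STZ-macrophage, control-macrophage, cells alone, split by black lines) with genes from low to high GC content of the transcript (right panel, percent). STZ-macrophage replicates 1 and 5 and cells-alone replicates 1 and 2 are high in many of the GC-rich genes at the bottom, such as Nr1h2, Srebf1 and Srebf2, and control-macrophage replicate 3 in the GC-poor genes at the top, such as Idi1.

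Other genes of the same pathways, chosen for their role, were called in both directions. Of 14 other sterol genes, 3 were called higher and 5 lower with STZ macrophages than in the cells alone, and 4 higher and 3 lower with control macrophages. Over all genes the shares were 20.8% higher and 22.3% lower with STZ, and 23.1% higher and 22% lower with control macrophages. The 5 lower with STZ macrophages exceed their share, and the other counts lie near theirs. Of 17 other fatty acid genes, 6 were higher and 0 lower with STZ macrophages, and 5 higher and 4 lower with control macrophages, where the control-macrophage shares again lie near those over all genes. Between the co-cultures edgeR called 0 of either list, and at an unadjusted p under 0.05 1 sterol gene was higher and 3 lower, and 3 fatty acid genes were higher and 1 lower (7.99% of all genes higher, 14.8% lower). Rnf145, a ubiquitin ligase of the sterol-sensing system, was lower at -2.48 (adjusted p = 5.53e-06) with STZ and -1.86 (adjusted p = 2.98e-05) with control macrophages. Tmem97, an SREBP target that binds sterols, was higher at 2.88 (adjusted p = 7.65e-05) with STZ and 3.06 (adjusted p = 3.07e-05) with control macrophages, and Soat1, which esterifies cholesterol for storage, at 1.60 (adjusted p = 0.000167) with STZ and 1.20 (adjusted p = 0.000575) with control macrophages. Mylip, an LXR target that marks lipoprotein receptors for degradation, was lower at -3.77 (adjusted p = 0.00149) with STZ and -4.10 (adjusted p = 0.00103) with control macrophages. Acsl4 and Acsl5, ligases that activate fatty acids with CoA, were higher, Acsl4 at 2.55 (adjusted p = 8.88e-07) with STZ and 1.93 (adjusted p = 4.22e-06) with control macrophages and Acsl5 at 3.25 (adjusted p = 0.0001) with STZ and 2.79 (adjusted p = 0.000118) with control macrophages. Acsl4 was at 254, 278, 246, 241 and 253 CPM with STZ macrophages, 174, 128, 190.5 and 151 CPM with control macrophages and 52.5, 33.9, 38.6 and 39.5 CPM in the cells alone, and all co-cultures lay above all cells-alone libraries.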

How the data were processed

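Bulk RNA of 13 libraries was measured, grouped by the labels' treatment. Per the labels' protocols, each library started from 10 ng of RNA in an unstranded kit and was sequenced as pairs of 150 bases. The submitters' processing notes name GRCm38 and DESeq2, without a version (aligner and counter: not given in the sources used here). Deposited by the authors were estimated counts for 55774 gene entries (11% of values not whole; rounded for the tests). They also deposited adjusted log2 values for 12236 genes, which hold 34 of the 36 genes, adjusted in a way that no source used here describes. This log2 table served as an alternative, with limma 3.58.1.

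The tests used edgeR 4.0.16 under R 4.3.3 (quasi-likelihood, robust; filterByExpr by group, 15781 genes; TMM), with 1 term per group and a batch term, on all 13 libraries, adjusted by Benjamini-Hochberg over all genes. The batch term rests on the co-cultures. All cells-alone libraries are of day 1, so fold changes against them depend on this term and can differ from ratios of mean CPM. The SE is the size of the fold change (log2) divided by the root of its F value. A model with 1 mean per group and batch gave values within a day. The fit was tested on simulated data, but no outcome is given here, so that this adds no weight to the results. Alternatives were RLE, library totals, DESeq2 1.42.0, other filters, designs and samples, and 4 chosen after the data had been seen. Libraries carry no molecular identifiers, so floors cover counting error only (3 counts equal 0.0493 to 0.133 CPM per library).

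The genes and lists were chosen with earlier results of these data known. Values per library are given for up to 3 called genes per role and comparison with the smallest p, and, where under 3 were called, for the 6 smallest p; others named were added after their values were seen. Windows of 100 bases shared between genes, GC content and positions come from the GENCODE annotation of GRCm38.

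Same-numbered libraries of control-macrophage co-culture and cells alone deviated together from their group means (r of 0.161 to 0.352 in 4 of 4 pairs). Different numbers had r from -0.430 (control-macrophage replicate 2 with cells-alone replicate 4) to 0.433 (control-macrophage replicate 3 with cells-alone replicate 4). Most of these were negative. Same numbers thus agreed in sign throughout, although the highest r was between different numbers. These values do not settle whether libraries were paired, and the labels give no pairing. Number 3 also joins day 2 with day 1. The replicate block is given as an alternative fit and not as a paired test. STZ-macrophage numbers did not pair (r of -0.202 to 0.474 with control-macrophage and -0.415 to 0.331 with cells-alone libraries).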

Additional observations from a re-analysis of the deposited data

Results flagged for a closer look

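There were 108 groups of 4 or 5 libraries (36 genes in 3 groups). Fads2 in the cells alone had no spread and could not be checked. Among the others, 4 held a library whose gap to the nearest other exceeded Dixon's 95% limit on the log2 CPM scale. Chance gives about 1 in 20, so this count does not exceed chance. Hmgcs1 was at 224 CPM in STZ-macrophage replicate 4, against 256 to 270.1 CPM in the other 4. Control-macrophage replicate 3 stood out in a pair of genes, with Idi1 at 646 CPM, against 278 to 312 CPM in the other 3, and Lss at 155 CPM, against 79.6 to 87.6 CPM. Fdft1 was at 24.5 CPM in cells-alone replicate 2, the library with the fewest counts, against 53.1 to 60.9 CPM in the other 3.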

How the results depend on the processing

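Over 46 gene results and 1192 alternative values, 1076 kept direction and side of the threshold, 92 lost the call, 21 gained one and 3 reversed. Of the calls against the cells alone, 6 of 19 with STZ macrophages (Mvd, Idi1, Cyp51, Fasn, Scd2 and Fads2) and 11 of 21 with control macrophages held in every alternative that gave a value. Mvd reversed between co-cultures with the GC correction (-0.15), and, in the authors' adjusted log2 table, Sqle (-1.28) and Fasn (-1.03) reversed with control macrophages against the cells alone; the cause was not tested.

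STZ against control macrophages called 0 sterol and 0 fatty acid genes; higher were 3 and 4 with DESeq2, 6 and 6 with only the co-cultures (1 sterol gene lower), 2 and 2 in the authors' table, 0 and 1 with library totals, and 0 and 2 with no filter. Leaving out 1 library gave 0 to 1 and 0 to 3, and 0 to 1 genes for the difference between days. Against the cells alone, 15 sterol genes were higher with control macrophages, and 8 with the macrophage term; 2 were lower, and 7 in the authors' table (with 1 fatty acid gene) and 4 with the GC correction. With STZ macrophages 12 sterol and 5 fatty acid genes were higher, and 3 and 3 with the macrophage term or without replicates 1 and 5. Of the sterol genes 2 were lower, and 1 in each of these and with no filter. With day 1 libraries only 0 were lower, and 4 in the authors' table (with 1 fatty acid gene). In that day 1 fit Abcg1 (-0.83, adjusted p = 0.0807) and Nr1h3 (-2.40, adjusted p = 0.0923) fell short. The separate model with 1 mean per group and day called 2 sterol genes lower within day 1. Leaving out 1 library gave 1 to 3 lower.

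With the replicate block, the counts higher were 16 and 4 with control macrophages and 9 and 4 with STZ macrophages, with 1 sterol gene lower, and 0 between co-cultures. Shares over all genes are not given for this block, library totals, no filter, day 1 libraries only, or fits without 1 library. They are also not given for genes called lower in the authors' table or with the GC correction. The counts of these fits therefore cannot be set against a background. With control macrophages the block gained Tm7sf2 and changed no other call. With STZ macrophages Acat2, Tm7sf2, Dhcr7, Nr1h3 and Acaca lost their calls. In both comparisons the block joins samples known to share only a number.

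Nr1h3 and Abca1 are limited by depth, at 1 to 17 counts of Nr1h3 per control-macrophage library. Day 2 has 1 control-macrophage library and 0 of cells alone, so values within day 2 rest on the spread of the other groups, and the comparisons with the cells alone have no day 2 reference.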
